A study of Homo sapiens with 14 samples.

Results

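The 47 genes described here encode proteins of homologous recombination and of the Fanconi anemia pathway. They were chosen by their GENCODE symbol, with no measured value in the rule, but with earlier results of these data known. The choice may therefore not be independent of the data, and the shares of all genes given beside the 47 are descriptive. All 47 were found among the 60683 Ensembl gene identifiers counted in every library. The study compared drug-treated with untreated cancer cells by RNA sequencing, with 2 libraries in each of 7 groups, 14 in all. A549, a lung cancer line, was untreated or was grown for 10 days with 2 μM palbociclib, an inhibitor of the cell cycle kinases CDK4 and CDK6, for 10 days with 0.5 μM indisulam, a molecular glue that directs the splicing factor RBM39 to degradation, for 10 days with both drugs at these doses (the combination), or for 7 days with 0.5 μM PF-06873600, which inhibits CDK2 as well as CDK4 and CDK6. SUM159, a triple negative breast cancer line, was untreated or was grown for 7 days with 0.5 μM PF-06873600. When the untreated cells were harvested is not given. The series calls its duplicates technical, so the p-values below measure the spread between these libraries, which may leave out the spread between independent cultures.

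Homologous recombination repairs a broken chromosome by copying the sister chromatid. The ends are first cut back to single strands by MRE11, RAD50, NBN, RBBP8 (CtIP) and EXO1, then BRCA1, PALB2 and BRCA2 prepare a single strand to invade the sister, and BLM with its partners or the nucleases MUS81-EME1 take the joined molecules apart. The Fanconi core complex, with FANCL as its ubiquitin ligase and UBE2T as the conjugating enzyme, adds ubiquitin to FANCD2 and FANCI where a crosslink blocks a replication fork. Because the sister is needed, these steps belong to S and G2 phase, and many of the genes are transcribed when cells enter S phase under E2F factors.

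Levels are given as CPM, the counts of a gene divided by the total on genes in its library and scaled alike in all libraries, and a gene was called changed when the adjusted p of edgeR's quasi-likelihood test over all tested genes was under 0.05. Library totals ran from 13060374 to 21149256 counts on genes, so that 3 counts, taken as the smallest level a library can show, lay between 0.142 and 0.23 CPM. This limit covers counting error only. All 47 genes passed the filter on low counts in every model. The lines differed in their epithelial and mesenchymal markers: KRT8, KRT18, CDH1 and EPCAM summed to 4469 to 11250 CPM over the A549 libraries and to 427.7 to 754.2 CPM over the SUM159 libraries and VIM, CDH2 and ZEB1 summed to 705.8 to 1935 CPM and 3885 to 4570 CPM. CDKN2A, with 0 counts in the 10 A549 libraries and 0 to 3 counts in the SUM159 libraries, did not tell the lines apart. Nor did the sum of the receptor genes ESR1, PGR and ERBB2, at 109.2 to 166.2 CPM in A549 and 118.3 to 130.9 CPM in SUM159. Of 5 markers of other cells, CD3E and ALB had no count in SUM159, while the list as a whole, PECAM1 and PTPRC among it, summed to 20.26 to 21.42 CPM in untreated and 46.48 to 46.77 CPM in treated SUM159 and to 0.4505 to 1.8 CPM in A549. Whether these transcripts came from SUM159 cells themselves or from other cells was not tested, nor was any part of other cells in the results. In GENCODE 44, 23 of the 47 genes have an exon that overlaps another gene, and since the strand setting of the counting is not given in the sources used here, their counts may hold or lack reads of that stretch. The overlap is on the same strand for 6 (RAD51D, RAD54B, FANCB, RBBP8, ATRIP and CHEK1) and on the other strand for 19 (BRCA1, RAD51D, XRCC3, RAD54L, FANCA, FANCB, FANCC, FANCF, FANCL, FANCD2, FANCI, RAD50, NBN, ATM, ATR, CHEK2, MUS81, EME1 and MSH6). The neighbors include POLG for FANCI, FANCD2OS for FANCD2, LRRC41 for RAD54L, VRK2 for FANCL and GAS2 for FANCF.

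Promoters are shown for 4 genes that the combination lowered in A549 and PF-06873600 lowered in SUM159, with the words that cell cycle factors are known to bind. RefSeq windows (GRCh38.p14) of 250 bases before to 50 bases after the annotated start were found for 41 of the 47 genes, and none was used for RECQL4, FANCI, RAD54B, WRN, NBN and RMI2. Capitals mark an E2F word (TTTCCCGC, TTTCGCGC, TTTGCCGC or TTTGGCGC, searched on both strands) in the first 3 and a CHR word (TTTGAA or TTTCGAA, both strands) in the last. FANCD2 is chr3:10026187-10026486 on the plus strand, XRCC2 is chr7:152676092-152676391 on the minus strand, EXO1 is chr1:241847954-241848253 on the plus strand and POLQ is chr3:121545939-121546238 on the minus strand, each printed 5′ to 3′ along its gene.
FANCD2: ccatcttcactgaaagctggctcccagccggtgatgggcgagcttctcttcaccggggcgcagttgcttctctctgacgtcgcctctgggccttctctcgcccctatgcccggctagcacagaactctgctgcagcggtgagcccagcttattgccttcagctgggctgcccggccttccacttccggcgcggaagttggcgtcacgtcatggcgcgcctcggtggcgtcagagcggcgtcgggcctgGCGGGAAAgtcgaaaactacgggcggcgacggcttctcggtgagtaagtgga
XRCC2: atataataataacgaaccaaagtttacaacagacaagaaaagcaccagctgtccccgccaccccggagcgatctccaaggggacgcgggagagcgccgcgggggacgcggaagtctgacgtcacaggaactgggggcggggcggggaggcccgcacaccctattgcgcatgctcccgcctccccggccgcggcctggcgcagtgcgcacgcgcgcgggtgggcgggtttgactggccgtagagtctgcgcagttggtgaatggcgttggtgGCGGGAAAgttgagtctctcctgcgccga
EXO1: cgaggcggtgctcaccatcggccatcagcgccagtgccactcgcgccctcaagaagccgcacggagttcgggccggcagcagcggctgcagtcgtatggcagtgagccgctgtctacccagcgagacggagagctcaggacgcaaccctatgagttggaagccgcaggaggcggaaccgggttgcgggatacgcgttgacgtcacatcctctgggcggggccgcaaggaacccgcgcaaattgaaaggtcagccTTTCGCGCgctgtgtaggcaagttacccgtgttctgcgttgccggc
POLQ: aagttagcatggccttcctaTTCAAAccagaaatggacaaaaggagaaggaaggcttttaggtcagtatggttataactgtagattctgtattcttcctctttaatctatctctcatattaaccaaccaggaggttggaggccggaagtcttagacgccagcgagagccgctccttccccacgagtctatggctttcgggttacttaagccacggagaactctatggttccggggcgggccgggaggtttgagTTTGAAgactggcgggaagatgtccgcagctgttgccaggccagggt
Positions were counted with no 0, as negative before the start and as positive from the start on. The E2F word began at -2 in FANCD2, at 22 in XRCC2 and at 5 in EXO1. A second RefSeq window of EXO1, chr1:241848481-241848780 on the plus strand, held none of the words searched and is not printed. In POLQ the CHR words began at -230 and 4. An E2F word was in the windows of 8 of the 41 genes (19.5%: EXO1, FANCA, FANCC, FANCD2, MSH6, RMI1, TOPBP1 and XRCC2) and of 3.99% of the 27305 genes with a window. A CHR word was in 5 of the 41 (12.2%) against 18.7% of all genes, and CCAAT, the NF-Y box, in 19 (46.3%) against 39.7%. No word searched holds another one whole. A word in a window describes its letters and not binding.

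In untreated A549, compared per length of the canonical transcript, the lowest of the 47 was BRCA2 with a mean of 0.549 RPKM and the highest PARP1, which marks breaks with ADP-ribose chains, with 41.5 RPKM. The median was 4.52 RPKM. UBE2T at 21.9, NBN at 21.5 and the mismatch sensor subunit MSH6 at 20.5 RPKM followed PARP1. At the low end RAD54B was at 0.79, RAD50 at 0.812, FANCM at 0.92 and FANCB at 0.959 RPKM. The conjugating enzyme UBE2T stood above every core complex subunit it serves, of which FANCG had the highest mean at 14.4 RPKM.

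Untreated SUM159 held more transcript of nearly all of these genes than untreated A549. Of the 47, 43 were called higher in SUM159, where 41.9% of all tested genes were called higher, and 3 lower, where 36.8% of all genes were; FANCL was not called. The median log2 difference was 1.35 over the 47 and 0.08 over all genes. The summed level of the 47 was 1240 to 1282 CPM in A549 and 2843 to 2905 CPM in SUM159.
RAD54L, a DNA translocase that acts during strand exchange, was at 7.2 and 6.4 CPM in A549 and at 47.8 and 54.6 CPM in SUM159, a 7.52-fold difference (log2 2.91 ± 0.12, SE; adjusted p = 4.44e-14). FANCB, an X-linked core complex subunit, was at 2.79 and 3 CPM against 19.5 and 21.7 CPM (7.1-fold), and BRCA2 at 6.8 and 6.33 CPM against 39.8 and 52 CPM (6.98-fold). For all 3 genes both SUM159 libraries lay far above both A549 libraries. The 3 genes that went the other way were FANCF, a core complex adaptor, at 19.6 and 21.7 CPM in A549 and 8.93 and 7.58 CPM in SUM159 (log2 -1.32 ± 0.13), the BLM partner RMI2 at 17.1 and 17.9 against 11.6 and 11.5 CPM (log2 -0.59 ± 0.10), and the RecQ helicase WRN at 45.8 and 49.7 against 29.5 and 33.9 CPM (log2 -0.59 ± 0.08). The 5 end resection genes had the smallest median difference of the 10 roles, 0.51. The 15 proliferation markers summed to 1216 to 1243 CPM in A549 and 4577 to 4619 CPM in SUM159, and all 15 were called higher in SUM159. The part of proliferation in these differences was not tested. RAD50 was called higher in SUM159 (log2 0.51 ± 0.17) but not without untreated A549 replicate 1 (0.24, adjusted p = 0.191), ATM not without untreated SUM159 replicate 2 (0.15, adjusted p = 0.18), FANCG not without that library either (0.17, adjusted p = 0.12), and MUS81 not without untreated A549 replicate 2 (0.19, adjusted p = 0.0831) or untreated SUM159 replicate 2 (0.16, adjusted p = 0.157).

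**Figure D1:**
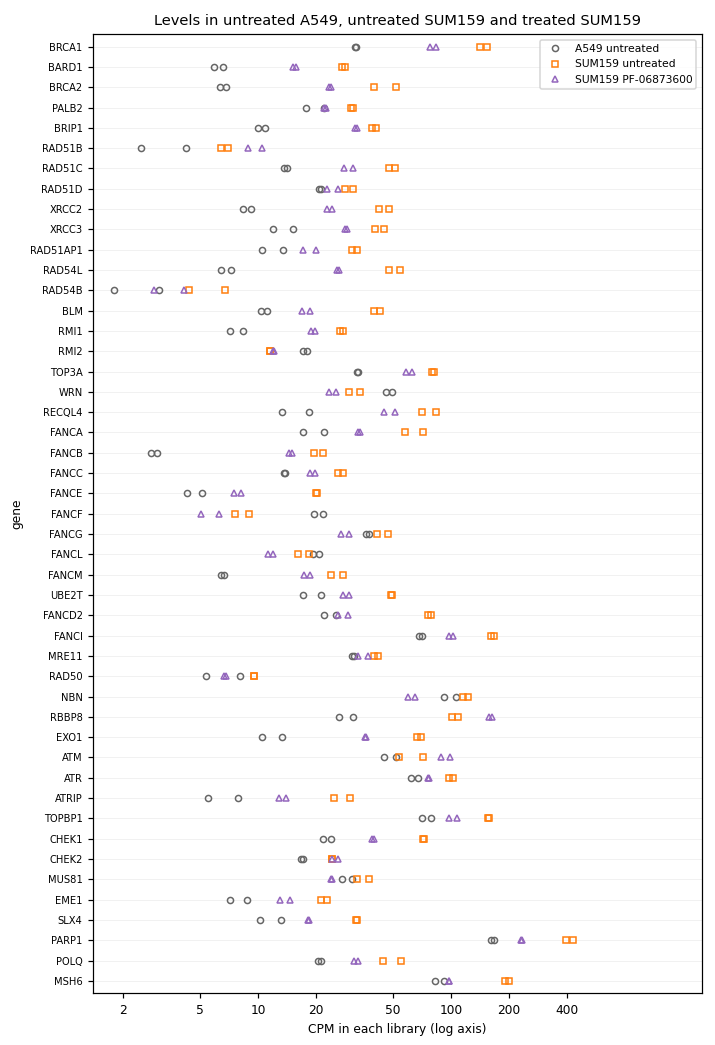
CPM (log axis) of each of the 47 genes in the 2 untreated A549 libraries (circles), the 2 untreated SUM159 libraries (squares) and the 2 SUM159 libraries treated with PF-06873600 (triangles). For 43 genes both untreated SUM159 libraries lay above both untreated A549 libraries, and for 38 the treated SUM159 libraries still did. Neither count was made over all genes.

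Palbociclib alone left most of the 47 genes without a call in A549, and those that were called were mostly higher. It raised 16 genes, where 8.3% of all tested genes were called higher, and lowered 2, RAD51D and FANCC, where 7.4% were called lower. The median log2 change was 0.14 over the 47 and -0.01 over all genes.
FANCM, the translocase that anchors the Fanconi core complex on DNA, rose from 6.46 and 6.67 CPM to 14 and 14.3 CPM (log2 1.11 ± 0.13, adjusted p = 3.63e-05). FANCB rose from 2.79 and 3 CPM to 5.79 and 5.86 CPM (log2 1.01 ± 0.22). XRCC2, which acts early in strand invasion, rose from 9.24 and 8.33 CPM to 13.3 and 18.4 CPM (log2 0.86 ± 0.15). The libraries of each group did not overlap for these genes, but the palbociclib libraries of XRCC2 stood apart from each other. XRCC3, the partner of RAD51C, was at 22.6 and 25.1 CPM against 15.2 and 11.9 CPM (log2 0.82 ± 0.12), POLQ, the polymerase of microhomology-mediated end joining, at 32.7 and 31.1 against 20.5 and 21.1 CPM (log2 0.62 ± 0.09), and RMI2 at 25.4 and 25.2 against 17.1 and 17.9 CPM (log2 0.53 ± 0.09). BRCA1 rose from 31.7 and 32.3 CPM to 43 and 42.5 CPM (log2 0.42 ± 0.07), FANCI by 0.36 ± 0.06 on the log2 scale and MRE11 by 0.44 ± 0.09.
These 9 calls held under every alternative in which the gene was tested, and the other 9 did not. FANCB did not pass the filter at a mean of 50 counts and was not tested there. The call of FANCD2 (25.4 and 22 CPM untreated, 29.2 and 39.1 CPM treated) was lost without palbociclib replicate 2 (log2 0.30, adjusted p = 0.172), which also ended those of EME1 (0.37, adjusted p = 0.264), ATR (0.17, adjusted p = 0.286), RAD51C (0.37, adjusted p = 0.146), RECQL4 (0.46, adjusted p = 0.15), TOPBP1 (0.26, adjusted p = 0.085), MSH6 (0.31, adjusted p = 0.0596) and FANCC (-0.32, adjusted p = 0.202), and left 9 genes called higher. RAD51D, a partner of XRCC2, fell from 20.7 and 21.1 CPM to 14.5 and 16 CPM (log2 -0.45 ± 0.09), a call lost without palbociclib replicate 1 (-0.38, adjusted p = 0.0581), which also ended those of RAD51C (0.38, adjusted p = 0.109), RECQL4 (0.48, adjusted p = 0.117) and TOPBP1 (0.28, adjusted p = 0.0521). FANCC was at 13.7 and 13.8 CPM and then at 11.1 and 9.58 CPM. Without untreated replicate 2, RECQL4 (0.25, adjusted p = 0.207), ATR (0.17, adjusted p = 0.11) and EME1 (0.42, adjusted p = 0.107) were not called, and without untreated replicate 1 RAD51C was not (0.35, adjusted p = 0.0654).

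Indisulam alone left most of the 47 genes without a call in A549, and those that were called went both ways. It lowered 8, where 17.5% of all tested genes were called lower, and raised 7, where 28% were called higher, and 32 were not called. The share of the 47 called lower, 17.0%, was near that of all genes, and the 14.9% called higher lay below the 28% of all genes. With TMM scaling 11 were called lower and 4 higher, the share of higher among all genes' calls went from 61.6% to 50.4% and the median of the 47 from 0.04 to -0.03.
The 8 lowered genes were FANCE, FANCG and FANCL of the 9 core complex genes, FANCD2 and FANCI, RMI2, MUS81 and POLQ. FANCE, the core subunit that recruits FANCD2, fell from 4.28 and 5.13 CPM to 2.7 and 2.11 CPM (log2 -0.97 ± 0.22, adjusted p = 0.00217), FANCL from 20.7 and 19.3 CPM to 12 and 14.3 CPM (log2 -0.60 ± 0.14), and FANCI from 68.6 and 70.8 CPM to 48 and 46.8 CPM (log2 -0.56 ± 0.06). The libraries of the groups were well apart for FANCI. RMI2 fell by 0.54 ± 0.10 on the log2 scale and POLQ by 0.40 ± 0.09. Of the raised genes, MSH6 went from 82.3 and 92.1 CPM to 110 and 127 CPM (log2 0.45 ± 0.07), the checkpoint kinase gene CHEK2 from 16.7 and 17.1 CPM to 22.5 and 22.4 CPM (log2 0.41 ± 0.09) and SLX4, the scaffold that gathers nucleases, from 13.1 and 10.2 CPM to 16.5 and 15.8 CPM (log2 0.48 ± 0.13).
Only FANCE, FANCL, FANCI, RMI2, POLQ and MSH6 kept their call under every alternative in which they were tested. FANCE did not pass the filter at a mean of 50 counts and was not tested there. Without indisulam replicate 2 the genes called lower went from 8 to 5, with 6 called higher, with FANCD2 (-0.37, adjusted p = 0.11), FANCG (-0.18, adjusted p = 0.181) and MUS81 (-0.26, adjusted p = 0.0927) lost, and RAD51C (0.22, adjusted p = 0.2) and MRE11 (0.28, adjusted p = 0.0569) were not called higher. Without untreated replicate 1 the same 3 lower genes were not called (FANCD2 at -0.33, adjusted p = 0.0805, FANCG at -0.20, adjusted p = 0.0837, and MUS81 at -0.16, adjusted p = 0.198), nor was MRE11 (0.25, adjusted p = 0.0502). Without indisulam replicate 1, FANCG (-0.25, adjusted p = 0.073), MUS81 (-0.23, adjusted p = 0.135), BLM (0.31, adjusted p = 0.136) and MRE11 (0.18, adjusted p = 0.229) were not called, and without untreated replicate 2 BLM (0.32, adjusted p = 0.0909), MRE11 (0.21, adjusted p = 0.0962) and SLX4 (0.31, adjusted p = 0.071) were not.

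**Figure D2:**
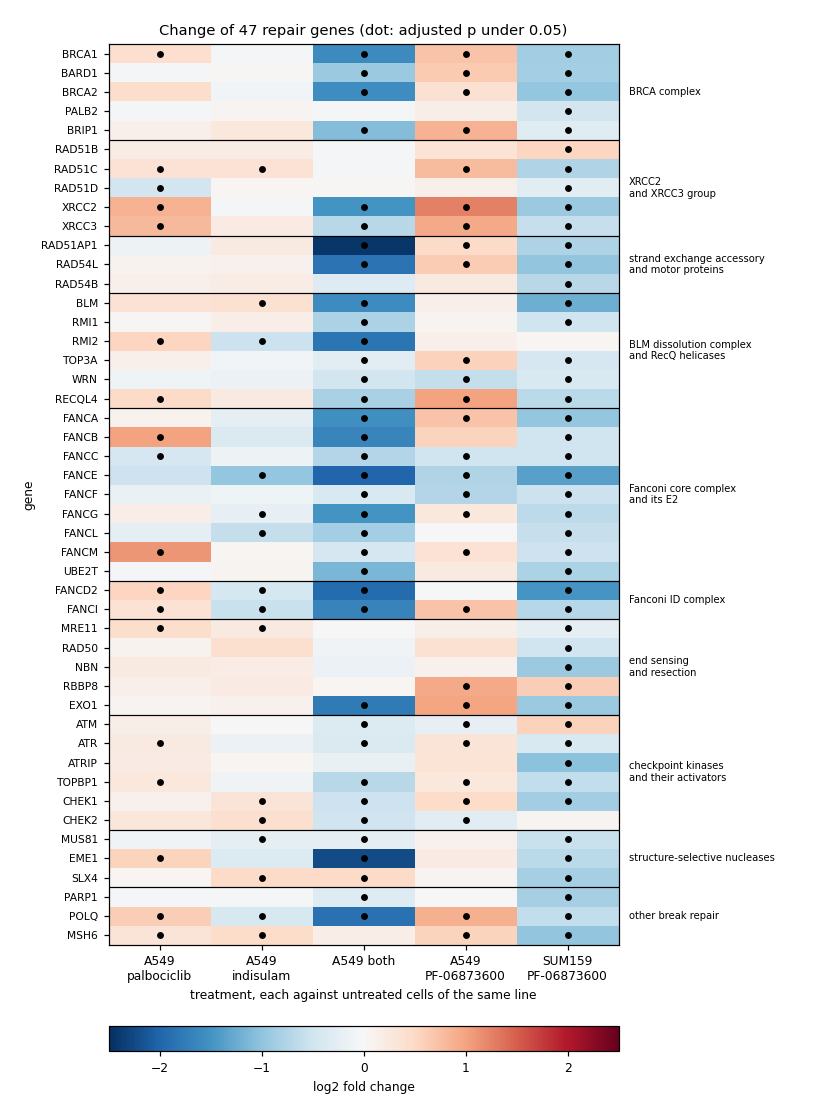
Log2 fold change (color) of the 47 genes, in rows by role, for 4 treatments of A549 and 1 of SUM159, each against untreated cells of the same line; a dot marks an adjusted p under 0.05. The column of the combination and that of SUM159 with PF-06873600 are mostly blue (35 and 42 genes called lower), and that of A549 with PF-06873600 mostly red (22 called higher).

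Both drugs together lowered most of the 47 genes in A549. Against untreated cells 35 were called lower, where 30% of all tested genes were called lower, and 1 was called higher, where 35.1% were; 11 were not called. The median log2 change was -0.70 over the 47 and 0.05 over all genes, and 18 genes had a log2 change of -1 or lower. The summed level of the 47 went from 1240 to 1282 CPM to 880.4 to 890.8 CPM. With these libraries, fewer cells with a transcript and fewer transcripts in each cell cannot be told apart. Against palbociclib alone 36 genes were lower (26.9% of all genes) and 2 higher (33.5% of all genes), and against indisulam alone 37 were lower (23.9% of all genes) and none higher (22% of all genes) by edgeR. None of the 47 was higher there at an unadjusted p under 0.05 either, and DESeq2 called none higher. Lower against untreated, palbociclib and indisulam cells alike were 31 genes. For 32 of the 47 both combination libraries lay below all 8 other A549 libraries. Neither of these counts was made over all genes, so how far the 47 stood out in them is not known.

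Among the genes of the BRCA complex, 4 of 5 fell. BRCA1, at 31.7 and 32.3 CPM in untreated cells, was at 10.6 and 10.7 CPM with the combination, 33.2% of the untreated level (log2 -1.59 ± 0.09, adjusted p = 7.83e-10), while palbociclib alone had it at 43 and 42.5 and indisulam alone at 32.5 and 30.3 CPM. BRCA2, the partner of PALB2, went from 6.8 and 6.33 CPM to 2.41 and 2.06 CPM (34%), with 9.05 and 8.6 CPM under palbociclib and 5.6 and 6.94 CPM under indisulam. Both genes had their lowest libraries in the combination. BARD1, the partner of BRCA1 in its ubiquitin ligase, fell from 5.91 and 6.6 CPM to 3.12 and 3.48 CPM (52.9%), and the helicase BRIP1 from 9.99 and 10.9 CPM to 5.18 and 4.7 CPM (47.1%). PALB2, the bridge between BRCA1 and BRCA2, was at 17.8 and 21.9 CPM untreated and 18.5 and 20 CPM with the combination and was not called (log2 -0.05 ± 0.11), nor was it called with either drug alone.

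The 5 genes of the XRCC2 and XRCC3 group, which with RAD51B, RAD51C and RAD51D assist strand invasion, divided. XRCC2 fell to 3.4 and 2.83 CPM (35.4%; log2 -1.50 ± 0.19) from 9.24 and 8.33 CPM, and XRCC3 to 8.65 and 8.05 CPM (61.8%; log2 -0.69 ± 0.13) from 15.2 and 11.9 CPM; an exon of XRCC3 overlaps KLC1 on the other strand. RAD51B, RAD51C and RAD51D were not called, with log2 changes of -0.04 ± 0.27, -0.04 ± 0.12 and 0.03 ± 0.09. RAD51C was at 13.7 and 14.1 CPM untreated, 17.9 and 18.1 CPM with palbociclib, 16.2 and 19.3 CPM with indisulam and 14.3 and 12.7 CPM with both.
The largest fall of all 47 was that of RAD51AP1, which stimulates strand exchange: it went from 10.5 and 13.5 CPM to 1.84 and 2.57 CPM, 18.6% of the untreated level (log2 -2.43 ± 0.19, adjusted p = 4.01e-08). It was at 10.3 and 11.8 CPM with palbociclib and at 14.6 and 13.5 CPM with indisulam, so that the palbociclib libraries overlapped the untreated ones and neither indisulam library lay below them. RAD54L fell from 7.2 and 6.4 CPM to 1.84 and 1.93 CPM (27.9%), and was at 6.01 and 8.36 CPM with palbociclib and 6.84 and 7.73 CPM with indisulam. RAD54B, whose exons overlap FSBP on the same strand, was at 1.8 to 3.39 CPM over the 8 libraries of these 4 groups and was not called.

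All 6 genes of the BLM complex and the RecQ helicases fell. BLM went from 11.1 and 10.3 CPM to 3.47 and 3.73 CPM (33.8%), against 14.8 and 12.8 CPM with palbociclib and 14.5 and 13.3 CPM with indisulam. RMI2 went from 17.1 and 17.9 CPM to 4.82 and 4.96 CPM (28%), against 25.4 and 25.2 CPM with palbociclib and 11.5 and 12.5 CPM with indisulam. RMI2 was thus raised by 1 drug, lowered by the other and lowered further by both. RMI1 fell to 58%, RECQL4 to 56.8%, WRN to 73.2% and the topoisomerase TOP3A to 82.7% of the untreated level, and the call of TOP3A was lost without combination replicate 1 (log2 -0.22, adjusted p = 0.0835).

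All 9 genes of the Fanconi core complex and its conjugating enzyme were called lower, as were FANCD2 and FANCI. FANCE, at 4.28 and 5.13 CPM untreated, 3.12 and 3.42 CPM with palbociclib and 2.7 and 2.11 CPM with indisulam, was at 1.21 and 1.16 CPM with both (25.2%; log2 -1.99 ± 0.25). FANCA, the scaffold of the complex, fell from 22 and 17.2 CPM to 6.52 and 7.02 CPM (34.7%), with 18.3 and 22.8 CPM under palbociclib and 18.6 and 15.1 CPM under indisulam; its exons overlap ZNF276 on the other strand. FANCB fell to 0.709 and 1.09 CPM (31.6%), which is 10 and 17 counts. For these 3 genes both combination libraries lay below all libraries of the other 3 groups, while the other groups of FANCA overlapped one another. FANCL went from 20.7 and 19.3 CPM to 15.9 and 17.8 CPM with palbociclib, 12 and 14.3 CPM with indisulam and 12.8 and 9.53 CPM with both (55.4%), so the indisulam and combination libraries of FANCL overlapped. UBE2T fell from 17.2 and 21.3 CPM to 8.01 and 9.33 CPM (45.1%), with 19.2 and 18.8 CPM under palbociclib and 19.8 and 20.4 CPM under indisulam. FANCG fell to 35.3%, FANCC to 60.3%, FANCF to 76.2% and FANCM to 74.6%. The call of FANCF was lost without combination replicate 2 (log2 -0.35, adjusted p = 0.0523), and that of FANCM without untreated replicate 2 (-0.40, adjusted p = 0.0701), without combination replicate 1 (-0.44, adjusted p = 0.0576) and without combination replicate 2 (-0.40, adjusted p = 0.0859).
FANCD2, whose promoter is shown above, fell from 25.4 and 22 CPM to 5.89 and 6.5 CPM (26.2%; log2 -1.93 ± 0.16, adjusted p = 6.48e-08), with 29.2 and 39.1 CPM under palbociclib and 18.3 and 16.8 CPM under indisulam. FANCI fell from 68.6 and 70.8 CPM to 22.6 and 21.2 CPM (31.4%; log2 -1.67 ± 0.07), with 87.6 and 91.5 CPM under palbociclib and 48 and 46.8 CPM under indisulam. Both partners of this complex ran in the same order, from palbociclib through untreated and indisulam to the combination, and the libraries of neighbors in that order did not overlap.

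Of the 5 genes of end sensing and resection, EXO1 alone was called. It fell from 10.5 and 13.3 CPM to 3.47 and 3.54 CPM (29.5%; log2 -1.76 ± 0.18), with 11.7 and 13.1 CPM under palbociclib and 10.9 and 14.5 CPM under indisulam. MRE11 was at 31.5 and 30.7 CPM untreated, 40.9 and 43.1 CPM with palbociclib, 37.8 and 35.2 CPM with indisulam and 31.4 and 31 CPM with both (log2 0.00 ± 0.09 against untreated), and RBBP8 at 26.2 and 31.1, 33.4 and 29.6, 31.7 and 34, and 30.1 and 29.4 CPM in the same order (log2 0.05 ± 0.10). RAD50 and NBN had log2 changes of -0.09 ± 0.19 and -0.15 ± 0.08. The nuclease complex MRE11-RAD50-NBN and its cofactor RBBP8 gave no call against untreated cells, whereas the long-range nuclease EXO1 did.

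Of the checkpoint genes 5 of 6 fell, and the median log2 change of the 6 was -0.44. CHEK1, the kinase downstream of ATR, went from 21.7 and 24 CPM to 15.7 and 16.3 CPM (70.3%), with 25.1 and 24 CPM under palbociclib and 28.3 and 28.7 CPM under indisulam; it shares exon bases with STT3A on the same strand. ATR went from 67.6 and 62.3 CPM to 50.7 and 49.8 CPM (77.4%), with 72.9 and 79.3 CPM under palbociclib and 59 and 58 CPM under indisulam. ATM went from 45.1 and 52 CPM to 39.1 and 37.9 CPM (79.2%), with 56 and 51.5 CPM under palbociclib and 49.5 and 47.6 CPM under indisulam. All 3 kinases had both combination libraries below all other A549 libraries. TOPBP1, which activates ATR, was at 61.7% and CHEK2 at 70.5% of the untreated level, while ATRIP, which shares exon bases with TREX1, was not called (log2 -0.18 ± 0.17).

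The nuclease subunit gene EME1 fell from 8.77 and 7.13 CPM to 1.56 and 1.8 CPM (21.3%; log2 -2.23 ± 0.22, adjusted p = 4.01e-07), with 10.2 and 13.1 CPM under palbociclib and 6.7 and 5.75 CPM under indisulam; its exons overlap LRRC59 on the other strand. Its partner MUS81, which overlaps CFL1 and EFEMP2 on the other strand, went from 30.8 and 27.4 CPM to 24.8 and 24.5 CPM (84.7%; log2 -0.24 ± 0.09), a call lost without untreated replicate 1 (-0.15, adjusted p = 0.171), combination replicate 1 (-0.25, adjusted p = 0.0782) or combination replicate 2 (-0.23, adjusted p = 0.108). The subunits of this pair differed in the size of their change. SLX4 was the 1 gene called higher, from 13.1 and 10.2 CPM to 17.6 and 14.9 CPM (log2 0.48 ± 0.13), and without combination replicate 1 it was not called (0.36, adjusted p = 0.066).
POLQ fell from 20.5 and 21.1 CPM to 5.46 and 5.92 CPM (27.4%; log2 -1.87 ± 0.11), with 32.7 and 31.1 CPM under palbociclib and 16.4 and 15.1 CPM under indisulam. PARP1 fell from 162 and 167 CPM to 128 and 135 CPM (79.7%), with 163 and 160 CPM under palbociclib and 161 and 164 CPM under indisulam. MSH6 was at 82.3 and 92.1 CPM untreated, 108 and 111 CPM with palbociclib, 110 and 127 CPM with indisulam and 98 and 98.9 CPM with both, where it was not called (log2 0.17 ± 0.07).

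**Figure D3:**
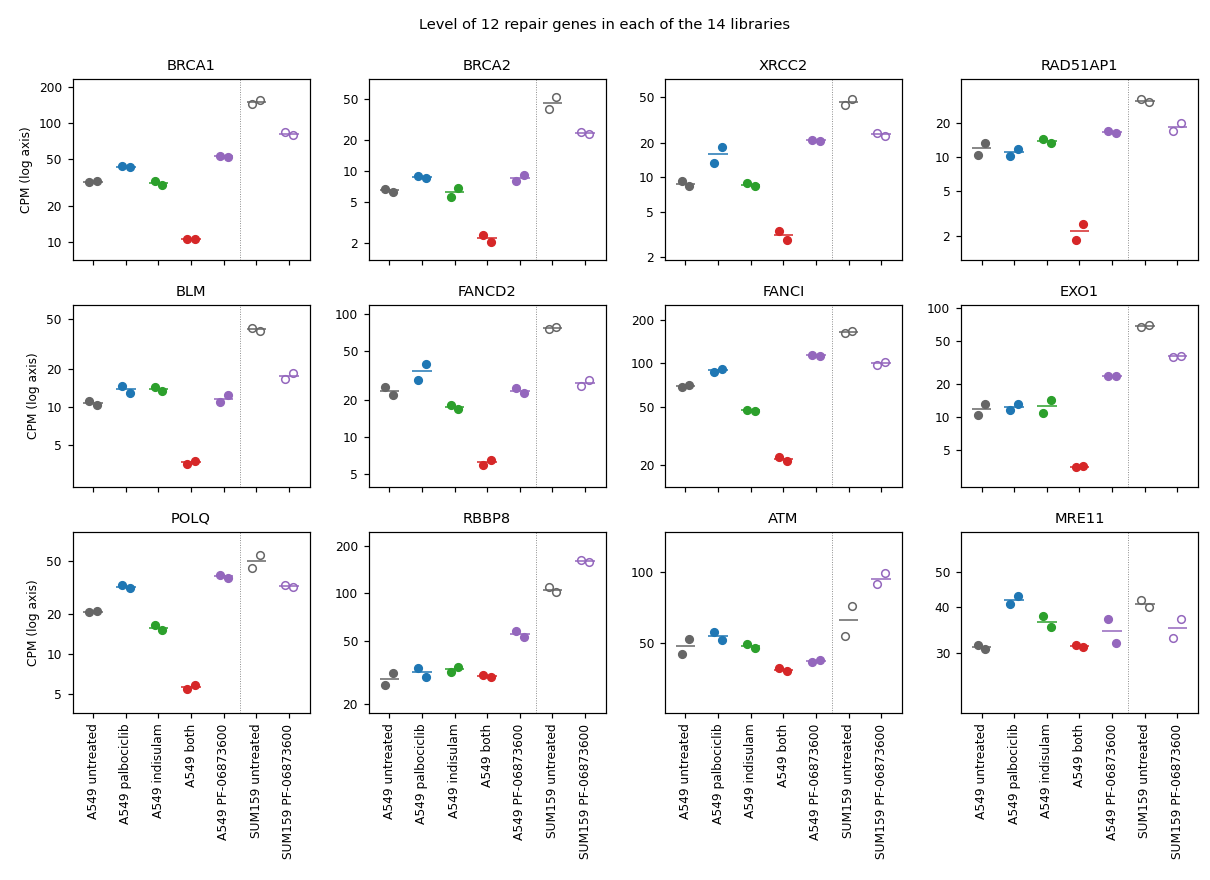
CPM (log axis) of 12 of the 47 genes in each of the 14 libraries; filled points are A549, open points SUM159, and a line marks the mean of 2 libraries. BRCA1, BRCA2, XRCC2, RAD51AP1, BLM, FANCD2, FANCI, EXO1, POLQ and ATM have both combination libraries below every other A549 library, which RBBP8 and MRE11 do not.

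The combination differed from what the single drugs added up to on the log2 scale, tested as 1 term of the same model. The term was below 0 for 33 of the 47 genes, where 14.5% of all tested genes were called below 0, and above 0 for 1, RAD51D, where 10.7% were. Its median was -0.89 over the 47 and -0.02 over all genes. Of the 21 genes called with neither drug alone, 14 were called lower with both, and 13 genes called higher with palbociclib were called lower with the combination. These joint counts were made for the 47 genes only, and the share over all genes is not known.
The term was -2.54 ± 0.24 for RAD51AP1 (adjusted p = 2.61e-06), -2.44 ± 0.27 for EME1 and -2.33 ± 0.25 for XRCC2, the 3 lowest, and -1.98 ± 0.11 for BRCA1. It was -0.50 ± 0.35 for FANCE, -0.18 ± 0.16 for FANCC, -0.12 ± 0.15 for FANCF and -0.00 ± 0.19 for FANCL, none of them called, although all 4 were lower with the combination than untreated. In the Fanconi core complex the term was called for the other 5 genes, FANCB at -2.29 ± 0.40, FANCM at -1.58 ± 0.19, FANCG at -1.45 ± 0.12, FANCA at -1.39 ± 0.22 and UBE2T at -1.19 ± 0.17.
The comparisons against palbociclib and against indisulam share the combination libraries, and those against untreated cells share the untreated ones. The genes lowest against palbociclib were EME1 (log2 -2.79 ± 0.20), FANCB (-2.67 ± 0.28) and POLQ (-2.48 ± 0.10), and the 2 higher were RAD51D (0.48 ± 0.09) and SLX4 (0.44 ± 0.13), the latter not without combination replicate 1 (0.32, adjusted p = 0.104). Lowest against indisulam were RAD51AP1 (-2.66 ± 0.19), RAD54L (-1.94 ± 0.21) and BLM (-1.94 ± 0.15). Of the 37 calls against indisulam, 10 were lost under at least 1 alternative: RAD51C, WRN, FANCB, FANCE, FANCF, FANCM, MRE11, RAD50, ATR and MSH6. For the term beyond the single drugs, BARD1, TOP3A, PARP1 and RAD51D lost theirs. The term of RAD51D, 0.44 ± 0.13, was not called without palbociclib replicate 1 (0.37, adjusted p = 0.102), indisulam replicate 1 (0.44, adjusted p = 0.0584), indisulam replicate 2 (0.43, adjusted p = 0.0669) or combination replicate 2 (0.38, adjusted p = 0.105).

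**Figure D4:**
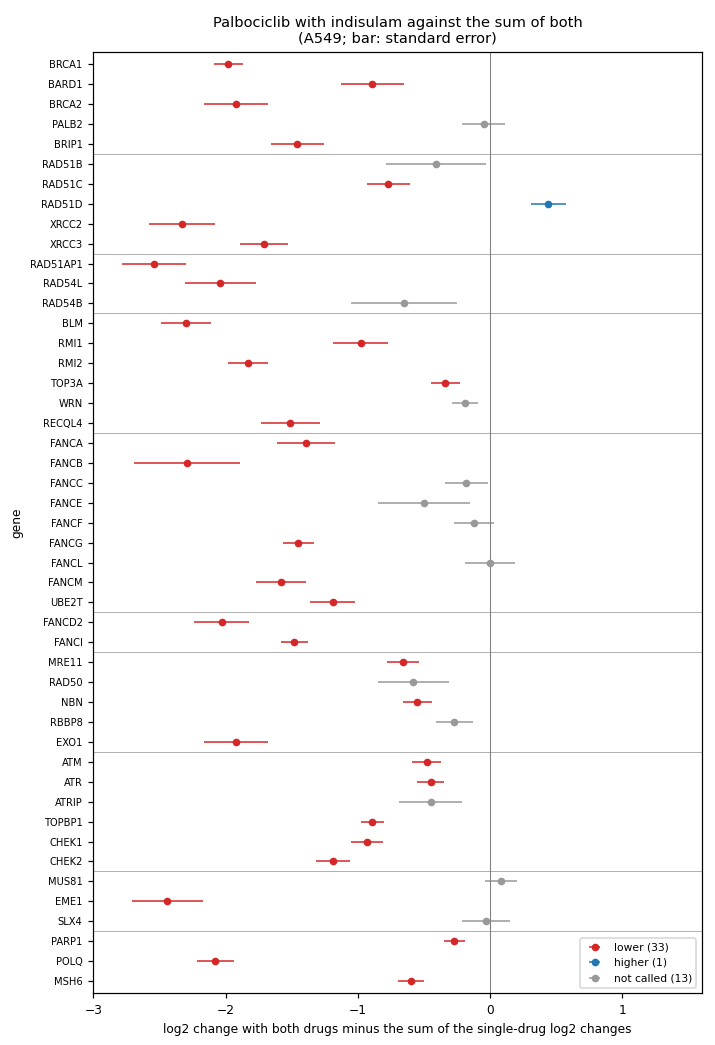
For each of the 47 genes in A549, the log2 change with both drugs minus the sum of the log2 changes with palbociclib and with indisulam; bars are standard errors. Of the 47 points 33 are called below 0, the lowest at -2.54 (RAD51AP1), 1 above 0 (RAD51D) and 13 are not called.

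Of 33 tested genes of a list of other recombination and Fanconi genes, the combination lowered 19 and raised 2, with a median log2 change of -0.26. The changes ran from -1.35, for the replication protein A subunit RPA3, to 0.72. USP1, which removes the ubiquitin from FANCD2, fell by 1.19. Of 15 tested end joining genes it lowered 5 and raised 2 (median -0.13). Over all tested genes 30% were called lower and 35.1% higher, so the share of end joining genes lowered was near that of all genes. The log2 changes of this list ran from -1.31 for SHLD1 to 0.72 for TP53BP1 and the ligase LIG4. SHLD2, like SHLD1 a part of shieldin, which holds back resection, was at -1.17. All 15 proliferation markers were lower (median -1.57), and their sum went from 1216 to 1243 CPM in untreated cells, 1272 to 1287 CPM with palbociclib and 1200 to 1209 CPM with indisulam to 405.7 to 406.7 CPM with both. The fall of the proliferation markers moved with that of the repair genes, and its part in it was not tested. With palbociclib alone the other recombination genes had 8 calls higher and 1 lower and with indisulam alone 2 higher and 1 lower. Of the end joining genes 1 was called with palbociclib, as higher, and with indisulam 3 were higher and 1 lower. Of the proliferation markers 7 rose and 5 fell with palbociclib, and 3 rose and 4 fell with indisulam. Over all tested genes 8.3% were called higher and 7.4% lower with palbociclib, and 28% and 17.5% with indisulam.

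PF-06873600 at 7 days raised rather than lowered these genes in A549. It raised 22 of the 47, where 28.5% of all tested genes were called higher, and lowered 6, where 27.8% were called lower; the median log2 change was 0.32 over the 47 and -0.01 over all genes. Their summed level went from 1240 to 1282 CPM to 1552 to 1578 CPM. For 20 genes both PF-06873600 libraries lay above all 8 other A549 libraries, though dose, drug and time differ between these groups. The same count was not made over all genes.
XRCC2 rose from 9.24 and 8.33 CPM to 21.1 and 20.8 CPM (2.38-fold; log2 1.25 ± 0.15, adjusted p = 4.29e-06), RECQL4, a helicase of replication and resection, from 18.4 and 13.3 CPM to 31.8 and 32.1 CPM (2.02-fold) and EXO1 from 10.5 and 13.3 CPM to 23.8 and 23.6 CPM (1.99-fold). The groups were well separated for all 3. XRCC3 rose to 26.3 and 25.7 CPM (1.92-fold), RBBP8 from 26.2 and 31.1 CPM to 57.7 and 52.7 CPM (1.92-fold), and POLQ to 39.2 and 37.3 CPM (1.84-fold). BRIP1 rose to 19.3 and 19.1 CPM (1.83-fold), RAD51C to 24.7 and 23.2 CPM (1.73-fold), BRCA1 to 52.9 and 52.1 CPM (1.64-fold), FANCA to 30.9 and 33.1 CPM (1.64-fold), FANCI to 115 and 113 CPM (1.64-fold) and BARD1 to 9.03 and 10.7 CPM (1.58-fold). The genes that rose included members of the BRCA complex and of the XRCC2 and XRCC3 group. Of the end sensing and resection genes EXO1 and RBBP8 rose, while MRE11, RAD50 and NBN were not called.
FANCD2, the partner of FANCI, was at 24.8 and 22.7 CPM against 25.4 and 22 CPM untreated (log2 0.00 ± 0.13) and BLM at 10.9 and 12.4 CPM (log2 0.13 ± 0.13). PARP1 at 165 and 164 CPM, MRE11 at 37.1 and 31.9 CPM, PALB2 at 23 and 20.9 CPM, FANCL at 21.1 and 18.7 CPM, UBE2T at 22.6 and 22.5 CPM and RMI2 at 19.2 and 19 CPM were also not called.
The lowered genes were FANCE, from 4.28 and 5.13 CPM to 3.22 and 2.41 CPM (log2 -0.76 ± 0.21), FANCF, from 19.6 and 21.7 CPM to 11.3 and 13.5 CPM (log2 -0.73 ± 0.11), WRN, from 45.8 and 49.7 CPM to 31.2 and 32 CPM (log2 -0.59 ± 0.07), FANCC (log2 -0.50 ± 0.12), CHEK2 (-0.29 ± 0.10) and ATM (-0.21 ± 0.08). Of these WRN, FANCF and FANCC kept their call under every alternative tried. Without untreated replicate 2, 3 genes were called lower, with ATM at -0.10 (adjusted p = 0.301), CHEK2 at -0.27 (adjusted p = 0.0652) and FANCE at -0.62 (adjusted p = 0.0521) lost; without PF-06873600 replicate 2 the same 3 were lost (ATM at -0.23, adjusted p = 0.112, CHEK2 at -0.30, adjusted p = 0.0853, and FANCE at -0.55, adjusted p = 0.104), and without PF-06873600 replicate 1 ATM (-0.20, adjusted p = 0.156) and CHEK2 (-0.28, adjusted p = 0.0927) were. BRCA2, at 8.04 and 9.15 CPM against 6.8 and 6.33 CPM (log2 0.39 ± 0.15), and FANCM (0.36 ± 0.13) were not called higher without PF-06873600 replicate 2 (0.29, adjusted p = 0.246, and 0.28, adjusted p = 0.215) or untreated replicate 2 (0.34, adjusted p = 0.126, and 0.39, adjusted p = 0.0665), nor without untreated replicate 1 (0.45, adjusted p = 0.0502, and 0.34, adjusted p = 0.096). RAD51AP1, at 17 and 16.5 CPM (log2 0.48 ± 0.14), was not called without untreated replicate 1 (0.31, adjusted p = 0.0655), and FANCG (0.26 ± 0.08) not without PF-06873600 replicate 1 (0.26, adjusted p = 0.0527).
Of the proliferation markers, 6 rose in A549 with PF-06873600, PCNA and MCM2 to MCM6 of the replication helicase (log2 0.36 to 1.21), and 7 fell, among them MKI67 (-0.97), TOP2A (-1.23) and the mitotic kinase PLK1 (-1.24), and their sum was 1273 to 1313 CPM. Their part in the rise of the repair genes was not tested. Of the other recombination and Fanconi genes 13 rose and 8 fell, and of the end joining genes 4 rose and 2 fell. Over all tested genes 28.5% were called higher and 27.8% lower.

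In SUM159 the same dose and time of PF-06873600 lowered nearly all of the 47. It lowered 42, where 35.6% of all tested genes were called lower, and raised 3, where 38.1% were called higher; RMI2 and CHEK2 were not called. The median log2 change was -0.65 over the 47 and 0.02 over all genes, and 4 genes, FANCD2, FANCE, BLM and ATRIP, had a log2 change of -1 or lower. The summed level went from 2843 to 2905 CPM to 1884 to 1887 CPM.
FANCD2 fell from 76.3 and 78.5 CPM to 26 and 29.2 CPM, 35.8% of the untreated level (log2 -1.48 ± 0.07, adjusted p = 9.33e-11), FANCE from 20.2 and 19.9 CPM to 7.48 and 8.18 CPM (39.2%) and BLM from 43 and 40.1 CPM to 16.8 and 18.5 CPM (42.6%). All 3 also fell with the combination in A549. BRCA1 fell from 142 and 154 CPM to 83.5 and 78.3 CPM (54.7%), BARD1 from 27.4 and 28.2 to 15.1 and 15.8 CPM (55.7%) and BRCA2 from 39.8 and 52 to 23.8 and 23.2 CPM (51.2%). PALB2, called with no treatment of A549, fell from 30.5 and 31.1 CPM to 22.1 and 22.6 CPM (72.7%), and BRIP1 from 40.8 and 38.9 to 32.6 and 31.9 CPM (80.8%).
Of the XRCC2 and XRCC3 group, XRCC2 fell from 42.3 and 47.5 CPM to 24.3 and 22.8 CPM (52.3%), RAD51C from 51.5 and 47.5 to 30.9 and 27.8 CPM (59.1%) and XRCC3 from 40.6 and 45.2 to 28.4 and 29 CPM (66.9%). RAD51B went the other way, from 6.39 and 7.01 CPM to 8.89 and 10.5 CPM (log2 0.54 ± 0.14), a call lost without PF-06873600 replicate 2 (0.41, adjusted p = 0.0759). RAD54L fell from 47.8 and 54.6 to 26.3 and 25.7 CPM (50.8%) and RAD51AP1 from 32.7 and 30.8 to 17.2 and 19.9 CPM (58.7%). FANCA fell from 57.7 and 71.6 to 33.9 and 32.8 CPM (51.6%), FANCI from 162 and 167 to 97.6 and 102 CPM (60.8%), UBE2T from 49.2 and 49.4 to 29.5 and 27.6 CPM (57.8%) and FANCL from 16.2 and 18.4 to 11.3 and 11.9 CPM (67.4%). All 9 core complex genes and both partners of the FANCD2-FANCI complex were called lower.
EXO1 fell from 66.8 and 70.3 CPM to 35.7 and 36.4 CPM (52.6%), MRE11 from 41.9 and 40 to 33 and 37.2 CPM (86%), CHEK1 from 72.1 and 71.5 to 39 and 39.9 CPM (55%), ATR from 97.2 and 102 to 76.5 and 77.1 CPM (77%), PARP1 from 428 and 394 to 233 and 230 CPM (56.4%), POLQ from 44.2 and 54.9 to 33.1 and 31.6 CPM (65.3%) and MSH6 from 199 and 190 to 98 and 98.3 CPM (50.5%). RBBP8 rose from 109 and 101 CPM to 163 and 158 CPM (1.53-fold; log2 0.61 ± 0.06, adjusted p = 1.59e-07) and ATM from 53.8 and 72 CPM to 88.9 and 99.2 CPM (1.5-fold; log2 0.58 ± 0.10). RMI2 stayed within 11.5 to 12.1 CPM over the 4 libraries. RAD51D (log2 -0.27 ± 0.09) was not called without untreated replicate 1 (-0.20, adjusted p = 0.0594) or PF-06873600 replicate 1 (-0.18, adjusted p = 0.154), RAD54B (-0.69 ± 0.23) not without untreated replicate 1 (-0.34, adjusted p = 0.167) or PF-06873600 replicate 2 (-0.43, adjusted p = 0.148), and MRE11 and FANCF not without PF-06873600 replicate 1 (-0.14, adjusted p = 0.235, and -0.39, adjusted p = 0.0903).
The 15 proliferation markers all fell (median -1.49), from a sum of 4577 to 4619 CPM to 1722 to 1724 CPM, and the part of this fall in that of the repair genes was not tested. Of the other recombination and Fanconi genes 18 fell and 4 rose, and of the end joining genes 11 fell and 2 rose. Over all tested genes 35.6% were called lower and 38.1% higher.

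The responses of the 2 lines to PF-06873600 differed for 41 of the 47 genes, tested as 1 term over all 14 libraries. The SUM159 response was lower for 39, where 27.2% of all tested genes were called lower, and higher for 2, ATM and CHEK2, where 25.8% were; the median difference was -0.92 over the 47 and 0.04 over all genes. Of the 47, 21 were called higher in A549 and lower in SUM159, among them BRCA1, BRCA2, XRCC2, FANCA, FANCI, EXO1, CHEK1, POLQ and MSH6, and 17 were not called in A549 and lower in SUM159. WRN, FANCC, FANCE and FANCF were called lower in both lines and RBBP8 higher in both, and ATM was called lower in A549 and higher in SUM159. Pairs of calls were not counted over all genes.
The difference was -2.18 ± 0.17 for XRCC2 (adjusted p = 3.36e-09), -1.92 ± 0.15 for EXO1 and -1.58 ± 0.09 for BRCA1, and 0.79 ± 0.15 for ATM. It was 0.01 ± 0.14 for FANCC, -0.08 ± 0.13 for RMI2, 0.20 ± 0.19 for FANCF and 0.22 ± 0.11 for WRN, which were not called. CHEK2, at 0.35 ± 0.13, was not called when any of 6 single libraries was left out, with values of 0.29 to 0.36. After treatment the SUM159 levels remained above untreated A549 in most cases: for 38 genes both treated SUM159 libraries lay above both untreated A549 libraries, for 7 below, and against both A549 libraries treated with PF-06873600 they lay above for 30 and below for 12. BRCA1, for instance, was at 83.5 and 78.3 CPM in treated SUM159 and at 52.9 and 52.1 CPM in treated A549. The counts of genes that lay above and below were made for the 47 only. The difference between the lines was also called for 14 of the 15 proliferation markers, all lower in SUM159, with TOP2A not called (-0.08), and its part was not tested.

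**Figure D5:**
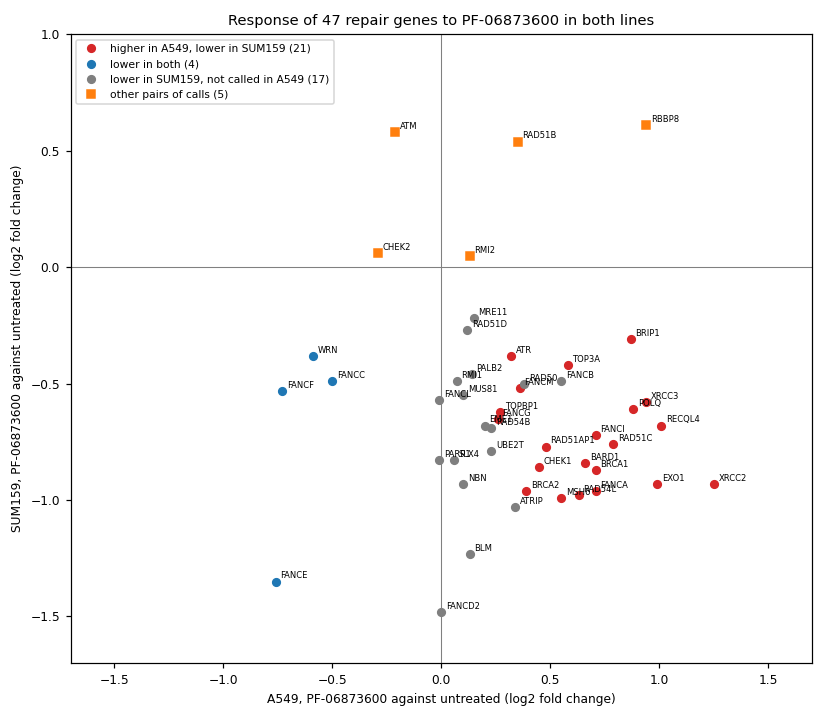
Log2 fold change with PF-06873600 against untreated cells in A549 (horizontal) and SUM159 (vertical) for the 47 genes, colored by the pair of calls. The 21 genes called higher in A549 and lower in SUM159 lie at the lower right, FANCE, FANCF, FANCC and WRN lie at the lower left, and RBBP8 lies at the upper right.

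The rule did not use gene structure or promoter words, and these are given as descriptions. Over the 47 genes the median number of exons of the canonical transcript was 15. The 24 genes with 15 exons or fewer had a median log2 change of 0.06 with indisulam and -0.71 with the combination, and the 23 with more had -0.02 and -0.70. Splitting by transcript length at its median of 4265 bases gave -0.74 for shorter and -0.70 for longer genes with the combination, and splitting by genome span gave -0.60 and -0.85. The 8 genes with an E2F word had a median of -1.15 with the combination in A549 and -0.93 with PF-06873600 in SUM159, against -0.50 and -0.58 for the 33 genes with a window and no such word. With PF-06873600 in A549 the medians were 0.41 and 0.34. The other words did not run the same way: for the 5 genes with a CHR word against the 36 without, the medians were -1.08 and -0.60 with the combination, 0.23 and 0.34 with PF-06873600 in A549 and -0.49 and -0.67 in SUM159. For the 19 genes with CCAAT against the 22 without, they were -0.51 and -0.79, 0.34 and 0.33, and -0.58 and -0.64. FANCC, which has an E2F word and a CHR word, was called lower in each of these comparisons.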

How the data were processed

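The 14 libraries were stranded mRNA libraries sequenced as single-end reads, and the deposited files hold raw read counts per Ensembl gene made by the authors on hg38, with HISAT2 2.2.1 and HTSeq named in the submitters' processing notes. The annotation release and the strand setting of the counting are not given in the sources used here. Of the listed reads 16.9 to 21.9% were not on a gene and were left out of totals. Symbols and positions came from GENCODE 44 (60370 of 60683 identifiers matched).

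Counts were tested with edgeR 4.0.16 in R 4.3.3 (quasi-likelihood F test, total count scaling, filterByExpr, Benjamini-Hochberg over all tested genes, threshold 0.05) in 3 models, of 10 A549, 4 SUM159 and all 14 libraries, with 15780, 15055 and 17279 genes. The SE was taken from the log2 change and F. Scripts were tested on simulated data. Alternatives were TMM scaling, DESeq2 1.42.0, low count filters, models of the compared groups only, a replicate block and each library left out. Per-library values were given for genes set by role and for the 3 genes called lowest and highest in a comparison whose groups did not overlap and whose higher mean was at least 1 CPM. The members and lists were chosen with earlier results of these data known. Promoter windows came from RefSeq. Tables and figures were made with Python 3.11.15, pandas 2.3.3 and matplotlib 3.10.9.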

Additional observations from a re-analysis of the deposited data

Results flagged for a closer look

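The response to 0.5 μM PF-06873600 at 7 days differed between the lines for 41 of the 47 genes by the interaction term of edgeR's quasi-likelihood test over all 14 libraries: 39 had a lower and 2 a higher log2 response in SUM159 than in A549. With 2 libraries a group no library could be tested for standing apart. The difference, SUM159 minus A549 on the log2 scale, is given here for the 41 genes by role. Among the genes of the BRCA complex it was -1.58 for BRCA1, -1.51 for BARD1, -1.36 for BRCA2, -0.60 for PALB2 and -1.18 for BRIP1. For the XRCC2 and XRCC3 group it was -1.55 for RAD51C, -0.39 for RAD51D, -2.18 for XRCC2 and -1.52 for XRCC3. For the strand exchange accessory proteins it was -1.25 for RAD51AP1 and -1.60 for RAD54L. In the BLM complex and the RecQ helicases the values were -1.36 for BLM, -0.56 for RMI1, -1.0 for TOP3A and -1.69 for RECQL4. In the Fanconi core complex and its conjugating enzyme it was -1.67 for FANCA, -1.04 for FANCB, -0.59 for FANCE, -0.92 for FANCG, -0.56 for FANCL, -0.88 for FANCM and -1.02 for UBE2T. In the FANCD2-FANCI pair it was -1.49 for FANCD2 and -1.43 for FANCI. For end sensing and resection it was -0.36 for MRE11, -0.88 for RAD50, -1.03 for NBN, -0.33 for RBBP8 and -1.92 for EXO1. At the checkpoint it was 0.79 for ATM, -0.70 for ATR, -1.38 for ATRIP, -0.89 for TOPBP1, -1.31 for CHEK1 and 0.35 for CHEK2. Of the structure-selective nucleases the values were -0.65 for MUS81, -0.87 for EME1 and -0.89 for SLX4. The other break repair genes had -0.82 for PARP1, -1.49 for POLQ and -1.54 for MSH6. The sum of the 15 proliferation markers went from 4577 to 4619 CPM to 1722 to 1724 CPM in SUM159 and from 1216 to 1243 CPM to 1273 to 1313 CPM in A549, and its part in these differences was not tested. FANCE, RBBP8, RAD51D, FANCL, MRE11, CHEK2 and RMI1 lost their call under at least 1 alternative. Without A549 PF-06873600 replicate 1 the values were -0.39 for FANCE (adjusted p = 0.28), -0.47 for FANCL (adjusted p = 0.0669), -0.26 for MRE11 (adjusted p = 0.118), -0.37 for RAD51D (adjusted p = 0.0559), -0.26 for RBBP8 (adjusted p = 0.107) and 0.34 for CHEK2 (adjusted p = 0.0728). Of the other libraries, leaving out untreated A549 replicate 1 ended the calls of FANCE (-0.47) and RBBP8 (-0.21), untreated A549 replicate 2 and A549 PF-06873600 replicate 2 that of CHEK2 (0.33 and 0.36), SUM159 PF-06873600 replicate 1 those of FANCE (-0.53), MRE11 (-0.28) and RAD51D (-0.30), and SUM159 PF-06873600 replicate 2 those of CHEK2 (0.29), FANCE (-0.66) and RBBP8 (-0.31). Untreated SUM159 replicate 1 ended those of CHEK2 (0.34), FANCE (-0.58), MRE11 (-0.33), RAD51D (-0.32) and RBBP8 (-0.27), and untreated SUM159 replicate 2 those of CHEK2 (0.35), FANCE (-0.60) and FANCL (-0.46).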

How the results depend on the processing

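No called gene changed direction under any alternative run. With indisulam the counts changed order, from 8 lower and 7 higher to 6 and 8 without untreated replicate 1 and 5 and 6 without indisulam replicate 2, and the median of the 47 with indisulam went from 0.04 to -0.03 with TMM. Most counts of genes called stayed within 1.5 times, and the following did not; the cause was not tested. With DESeq2, palbociclib had 1 gene lower (2 in edgeR), indisulam 1 higher (7), the combination against palbociclib 1 higher (2), the term beyond the single drugs 0 higher (1), A549 with PF-06873600 3 lower (6) and the difference between lines 1 higher (2). With the compared groups only in the model, palbociclib had 0 lower and 9 higher (16) and indisulam 4 higher; at 0 lower, 3 genes had an unadjusted p under 0.05 in the model of all A549 libraries. With TMM, indisulam had 4 higher. With no filter on low counts, the term beyond the single drugs had 0 higher and the difference between lines 1 higher. Leaving out 1 library at a time gave 1 to 2 genes lower for palbociclib, 9 to 15 genes higher for palbociclib, 5 to 11 genes lower for indisulam, 0 to 2 genes higher for the combination against untreated cells, 1 to 2 genes higher for the combination against palbociclib, 0 to 1 genes higher for the term beyond the single drugs, 3 to 6 genes lower for A549 with PF-06873600 and 1 to 2 genes higher for the difference between lines. The libraries behind the lowest values are named beside the results.

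The replicate numbers are shared by the groups, but the labels tie them to nothing. Deviations of same-numbered libraries from their group means correlated from -0.31 (untreated and palbociclib A549) to 0.278 (untreated and indisulam A549). In a fit with a replicate block, the combination had 2 of the 47 genes higher, where it had 1 without, palbociclib had 2 lower and 16 higher, and calls over all genes went from 2478 to 2337 for palbociclib and from 11103 to 11286 for SUM159; other counts of members stayed within 1.5 times. With the palbociclib numbers crossed the block gave 2 lower and 19 higher, and with those of SUM159 crossed, between the untreated lines, 3 and 43; both were chosen after seeing the data. Counts below about 3 a library, 0.142 to 0.23 CPM, could not be told from none, and 2 libraries a group limit the precision.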
